A study of Mus musculus with 4 samples.

Results

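The 38 genes described here encode the machinery that copies DNA in S phase: origin licensing factors, helicase activators, polymerases and fork factors, nucleotide synthesis enzymes, E2F and cyclin E regulators, and the S phase factors Uhrf1 and Brca1. They were selected by gene symbol from a list of genes by function, drawn up with earlier results of these data known, and all 38 were found among the 56691 genes of the count table. RNA-seq was performed on 4 sarcomas, 2 from mice given arsenic trioxide (ATO) and 2 controls named PBS in the labels (2 per group), to compare tumor transcriptomes with and without the drug. ATO is an arsenical that was examined in the study as a compound that restores function to structural p53 mutants, and it was given in the drinking water until death. The study calls the control mice untreated. All 4 tumors, controls included, came from mice with the genotype p53R282W/+, that is, with 1 mutated and 1 wild-type germline allele of p53 in every cell and no tissue-specific driver. The allele is numbered after the human residue. Age at collection, sarcoma subtype and the state of the wild-type p53 allele in each tumor are not given in the sources used here. The labels do not state which mouse each tumor came from, so p-values measure only the spread between these samples.

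Before S phase, the origin recognition complex, Cdc6 and Cdt1 load the Mcm2-7 helicase onto origins. Kinases, among them the Cdk2 that cyclin E activates, then drive the recruitment of Cdc45 and the GINS complex. These turn the helicase on, and polymerases copy both strands behind it. Many of these genes are transcribed by E2F factors, which the retinoblastoma family of pocket proteins holds in check, and p53 acts on this switch through its target Cdkn1a (p21), an inhibitor of cyclin-dependent kinases. Tumors with many cycling cells therefore usually carry high levels of these transcripts.

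Promoter windows from RefSeq (GRCm38.p6), which run from 250 bases before to 50 bases after a gene start, were matched by symbol for 32 of the 38 genes. Mcm4, Gins1, Gins2, Gins4, Pole and Ccne2 had none. Some genes had several windows, and for 31 of the 38 windows the first 40 bases after the start were found in a transcript of the gene. Both strands were searched for the E2F core (TTNNCGC with C or G at each N), the CCAAT box (CCAAT), the GC box (GGGCGG) and the cell cycle homology region (TTTGAA), and overlapping matches were each counted. The E2F core was present in 21 of the 32 genes (65.6%), against 10.9% of all genes with a window and 18.1% of those that passed the expression filter. The CCAAT box was found in 20 (62.5%, against 41.1% and 42.3%) and the GC box in 23 (71.9%, against 38.2% and 64.6%). The cell cycle homology region occurred in 5 (15.6%, against 20.2% and 14.9%). A match is a description of the letters and not a measured binding site.

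For 6 genes, the 150 bases before the RefSeq start are printed 5′ to 3′ on the gene's strand. Capitals mark E2F cores, CCAAT boxes and GC boxes that lie whole within the stretch, on either strand. The gene starts of the GENCODE M21 annotation fall inside the printed stretch for Uhrf1, Orc1 and Rrm2. Mcm6, a helicase subunit, is shown for its paired E2F cores, which overlap on opposite strands, and Uhrf1, which couples DNA methylation to replication, and Orc1, the largest origin recognition subunit, for single cores. Rrm2, Tyms and E2f2 are shown because their levels set them apart from the other genes in the results.
Mcm6: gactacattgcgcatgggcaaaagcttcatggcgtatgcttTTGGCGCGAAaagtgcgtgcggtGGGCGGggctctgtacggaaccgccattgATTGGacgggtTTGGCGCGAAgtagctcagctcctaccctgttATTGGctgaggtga
Uhrf1: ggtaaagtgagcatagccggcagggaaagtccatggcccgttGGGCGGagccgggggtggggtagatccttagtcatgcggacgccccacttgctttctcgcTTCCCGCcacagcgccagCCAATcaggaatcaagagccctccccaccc
Orc1: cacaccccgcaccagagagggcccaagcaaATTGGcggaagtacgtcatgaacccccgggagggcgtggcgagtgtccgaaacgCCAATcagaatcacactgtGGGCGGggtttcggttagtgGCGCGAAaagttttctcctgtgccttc
Rrm2: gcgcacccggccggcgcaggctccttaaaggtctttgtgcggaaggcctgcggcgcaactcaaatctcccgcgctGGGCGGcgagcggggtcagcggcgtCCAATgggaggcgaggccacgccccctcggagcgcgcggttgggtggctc
Tyms: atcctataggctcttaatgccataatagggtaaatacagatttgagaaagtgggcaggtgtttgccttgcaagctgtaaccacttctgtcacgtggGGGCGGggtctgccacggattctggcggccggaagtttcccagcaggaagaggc
E2f2: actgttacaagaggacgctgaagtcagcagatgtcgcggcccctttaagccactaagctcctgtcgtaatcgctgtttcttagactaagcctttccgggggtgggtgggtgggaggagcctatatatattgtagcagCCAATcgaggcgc

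These stretches lie at chr1:128359706-128359855 (- strand), chr17:56303187-56303336 (+ strand), chr4:108579304-108579453 (+ strand), chr12:24708104-24708253 (+ strand), chr5:30073626-30073775 (- strand) and chr4:136172124-136172273 (+ strand) for Mcm6, Uhrf1, Orc1, Rrm2, Tyms and E2f2, in that order. The Mcm6 stretch held 4 E2F cores, and those of Uhrf1 and Orc1 held 1 each. Those of Rrm2, Tyms and E2f2 held none, although Rrm2 had a core at position -235 and E2f2 a core at 41 relative to the start, both outside the printed bases.

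**Figure D1:**
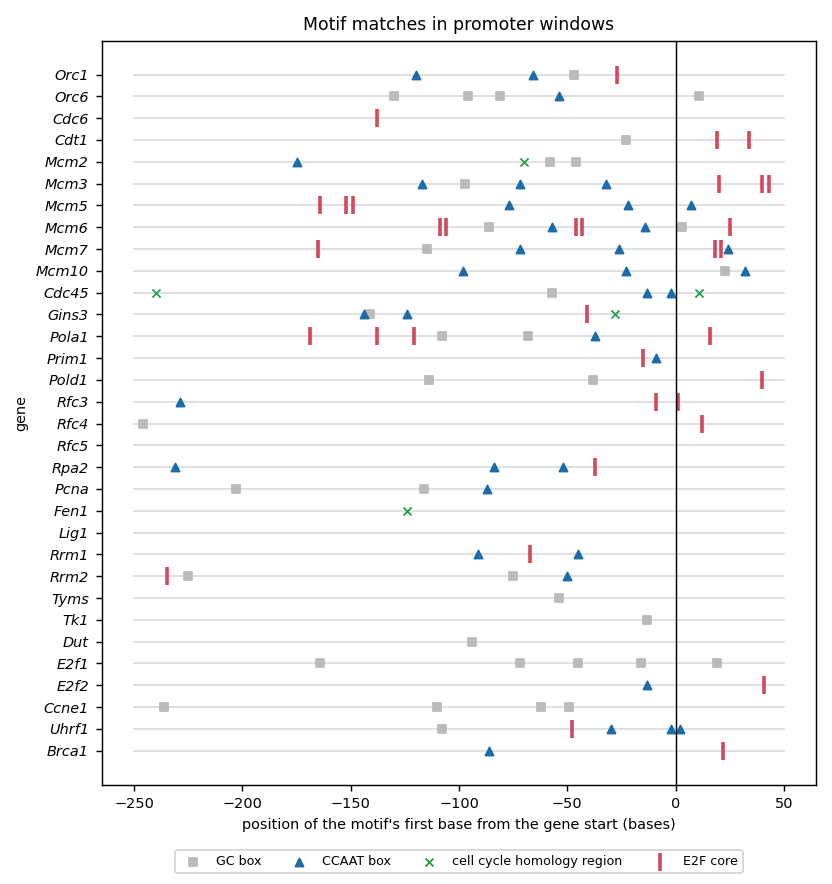
Position of each motif match (horizontal axis, bases from the gene start, marked by the vertical line at 0) in the first listed promoter window of each of the 32 genes (vertical axis). Red bars are E2F cores, blue triangles CCAAT boxes, grey squares GC boxes and green crosses cell cycle homology regions. Fen1 and Lig1, which have their E2F cores in a further window, show none here.

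The sarcomas were sequenced to between 15259695 and 18134000 counts, and all 38 genes passed the filter on low counts, which left 17188 genes. A single gene of the 38 had from 14 counts (Fen1 in ATO 2) to 3950 (E2f2 in ATO 1), so the thinnest values are those of ATO 2. ATO 2 stood apart: mitochondrial transcripts took 14.7% of its counts, against 1.98% to 2.59% in the others, and its summed level of 5 adipocyte markers was 5992 CPM (counts scaled to a common library total after TMM scaling), against 52.2 to 834. Muscle markers were highest in ATO 1 (39264 CPM summed over 8 genes), with 2726 CPM in ATO 2, 22.2 in PBS 1 and 346 in PBS 2. Both ATO tumors lay above both PBS tumors for 8 of 8 muscle and 5 of 5 adipocyte markers (19.7% of all genes). The levels of these markers thus went with the treatment groups, although 0 of them were called by edgeR. Endothelial markers were highest in PBS 2 (4575 CPM over 5 genes, against 442 to 1068). Osteoblast markers, summed over 5 genes, had the same order of tumors as the sum of the 38 genes given further on, with 1137 CPM in ATO 1, 27.9 in ATO 2, 88.6 in PBS 1 and 30.3 in PBS 2. Most single osteoblast markers did not follow this order. All 5 were highest in ATO 1, but ATO 2 was alone the lowest for 1 and PBS 1 for 2. PBS 1 exceeded PBS 2 for 2 of the 5. Sp7, an osteoblast factor, was at 0 in ATO 2 and PBS 1, and Runx2, another, had 115, 10.9, 82.7 and 23.3 CPM. All 7 mesenchymal markers had counts in every sarcoma (8935 to 36017 CPM summed), and 5 epithelial markers summed to at most 48.2 CPM. For 3 of the 7 mesenchymal markers (Vim, Pdgfrb and Thy1) both ATO tumors lay below both PBS tumors (20.2% of all genes). None of the 7 had both ATO tumors above. Pseudogene counts of Pcna and Tyms and the larger overlaps with opposite-strand genes are given where those genes are described, and Mcm7, Orc6, Cdc45, Lig1, Tk1 and Pole share between 0.699% and 7.25% of their exonic bases with such genes.

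ATO and PBS sarcomas did not separate by the expression of the replication genes. By edgeR's quasi-likelihood test with Benjamini-Hochberg adjustment, 0 of the 38 genes passed the threshold of 0.05, as did 0% of all genes tested, and the adjusted p of the 38 ranged from 0.583 to 0.997. At an unadjusted edgeR p under 0.05, 1 gene of the 38 (Tyms, lower in ATO) was counted, against 8.51% of all genes (3.07% lower and 5.44% higher in ATO). DESeq2 called 0 of the 38 and 4.12% of all genes. The fitted level was lower in ATO for 29 genes and higher for 9, where 50.8% of all genes were lower, and the median log2 fold change was -0.40, against -0.016 for all genes. This median depended on single tumors: it was 0.060 without ATO 2, 0.085 without PBS 1, -0.70 without PBS 2 and -1.34 without ATO 1. Both ATO sarcomas lay below both PBS sarcomas for 5 genes (Gins3, Pold1, Pole, Rfc3 and Tyms), a share of 20.2% over all genes, and above both for 0 (19.7% over all genes). By deposited FPKM, which divide by the library total alone, Mcm5, Gins2 and Rfc5 joined them, which made 8 genes below (29.6% over all genes) and 0 above (12.8% over all genes).

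**Figure D2:**
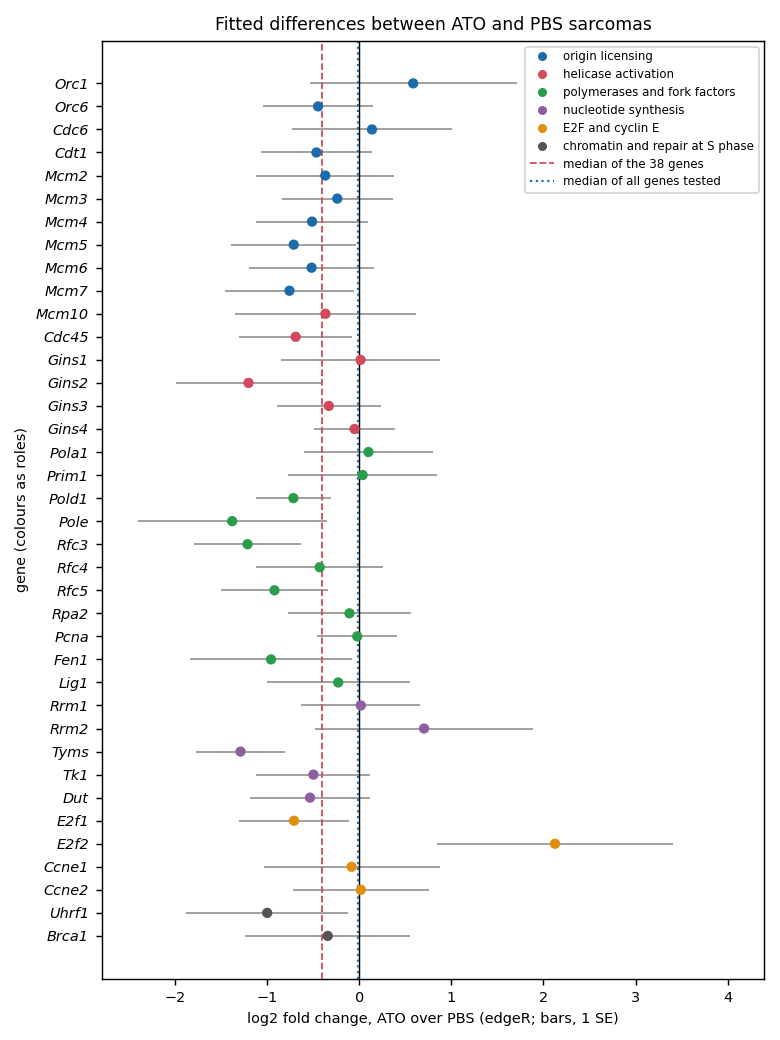
Fitted log2 fold change of ATO over PBS (horizontal axis) for each of the 38 genes (vertical axis, colored by role), with bars of 1 standard error from edgeR (2 sarcomas per group). Points run from -1.38 (Pole) to 2.13 (E2f2), and the dashed red line at the median of the 38 genes (-0.40) lies left of the dotted line for all genes (-0.016).

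The lowest place of ATO 2 was shared by nearly the whole set, and the order of the tumors crossed the treatment groups. Summed over the 38 genes, the level was 1542 CPM in ATO 1, 502 in ATO 2, 1475 in PBS 1 and 919 in PBS 2. The lowest and one of the highest totals thus both belonged to ATO sarcomas. ATO 2 was the lowest of the 4 for 35 genes (25.6% of all genes), and also for 37 by counts scaled to the library total alone (41.7% of all genes). PBS 1 was the highest for 23 genes (26.9% of all genes) and ATO 1 for 15 (23.9% of all genes). For 17 genes the order from high to low was PBS 1, ATO 1, PBS 2, ATO 2, and for 13 it was ATO 1, PBS 1, PBS 2, ATO 2. The exceptions to the low place of ATO 2 were Gins3, lowest in ATO 1, Gins4, lowest in PBS 2, and E2f2, lowest in PBS 1.

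Differences within a group were as large as those between groups. The median ratio of ATO 1 to ATO 2 over the 38 genes was 2.93-fold, and 36 genes were higher in ATO 1, while the median over all genes was 0.998-fold. PBS 1 exceeded PBS 2 by a median of 1.67-fold, again for 36 genes, with a median over all genes of 0.988-fold. Between single tumors of opposite groups, the median log2 ratio (CPM with a pseudocount of 1) was -0.19 for ATO 1 over PBS 1, 0.57 for ATO 1 over PBS 2, -1.49 for ATO 2 over PBS 1 and -0.86 for ATO 2 over PBS 2. The sign therefore changed with the pair of tumors taken. Proliferation markers, which mark cycling cells, were also lowest in ATO 2: 7 of 7 had counts in every sarcoma and 7 of 7 were lowest there. Their sum was 742 CPM in ATO 1, 67.6 in ATO 2, 571 in PBS 1 and 384 in PBS 2. Mki67 alone made up 455 CPM of the ATO 1 sum, and PBS 1 was the highest tumor for 6 of the 7. Both ATO tumors lay below both PBS tumors for 4 of the 7 (20.2% of all genes). The median log2 fold change of the 7 was -1.05, with 0 called by edgeR. In bulk tumor RNA, fewer cycling cells and less RNA per cell cannot be told apart. The part of the mitochondrial share and the adipocyte markers of ATO 2 in its low levels, and of the osteoblast markers in the order of the tumors, was not tested. Muscle and adipocyte markers were higher in both ATO tumors, and their part in differences between ATO and PBS was not tested either.

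**Figure D3:**
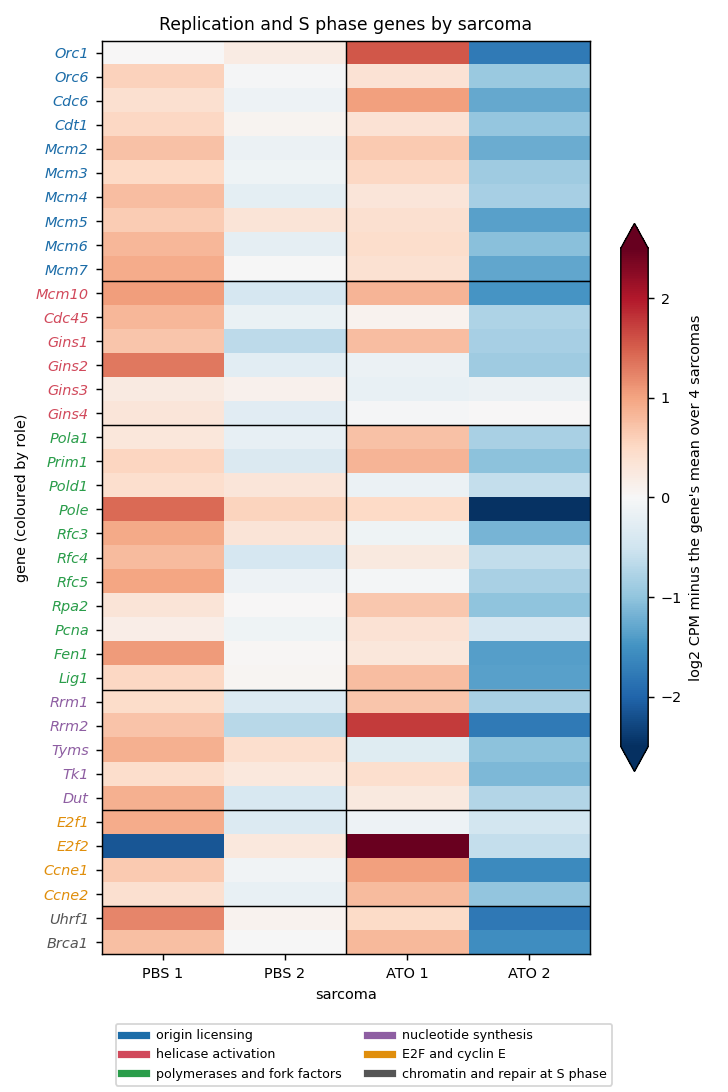
Levels of the 38 genes (vertical axis, grouped and colored by role) in each sarcoma (horizontal axis), as log2 CPM minus the gene's own mean over the 4 tumors, with red above and blue below it. The ATO 2 column is the lowest for 35 of 38 genes, and PBS 1 is above PBS 2 for 36. Whether ATO 1 or PBS 1 is highest varies gene by gene, and E2f2 is lowest in PBS 1.

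**Figure D4:**
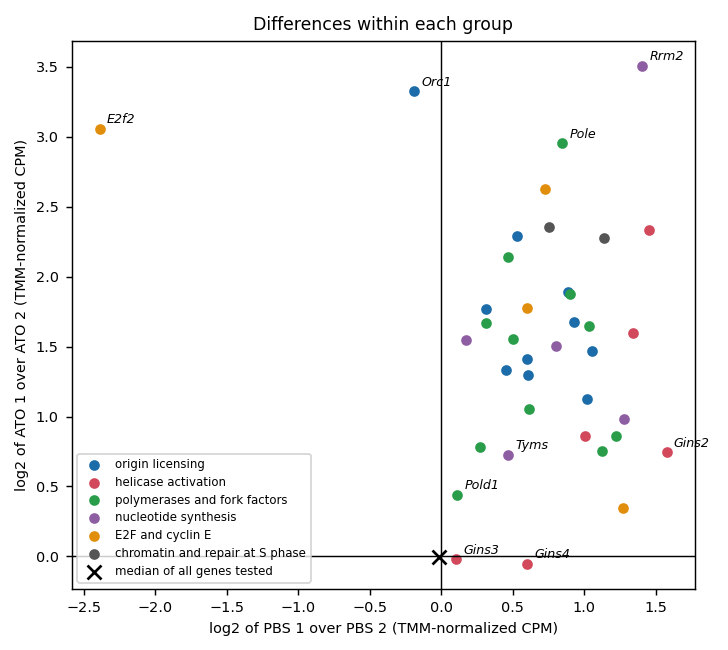
Log2 ratio of ATO 1 to ATO 2 (vertical axis) against that of PBS 1 to PBS 2 (horizontal axis) from TMM-normalized CPM, with 1 point per gene colored by role and a cross at the median of all genes tested. For 36 of 38 genes PBS 1 exceeded PBS 2, with Orc1 and E2f2 left of 0, and for 36 of 38 ATO 1 exceeded ATO 2, with Gins3 and Gins4 below 0.

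The origin licensing genes were lowest in ATO 2 in 10 of 10 cases, and their fitted level was lower in ATO for 8 of 10 (0 of 10 called by edgeR). Mcm6 had 75.6 CPM in ATO 1, 27.3 in ATO 2, 99.7 in PBS 1 and 47.9 in PBS 2. Its 2 groups overlapped, with ATO 1 above PBS 2, and the fitted log2 difference of ATO from PBS was -0.52 (SE 0.68), with an adjusted p of 0.856 by edgeR. Mcm7, another subunit of the same ring, had 78.9 CPM in ATO 1, 24.7 in ATO 2, 115 in PBS 1 and 60.4 in PBS 2, which gave the lowest fold change of the Mcm2-7 genes (-0.76, SE 0.70). Across Mcm2 to Mcm7 the fold changes lay between -0.76 and -0.24, and all 6 were negative. Per length, as deposited FPKM (fragments scaled to gene length and library total), Mcm2 was the lowest of the 6 in every tumor, and the highest subunit exceeded it by 2.11-fold in ATO 1, 2.85-fold in ATO 2, 2.89-fold in PBS 1 and 2.80-fold in PBS 2.

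Among the loading factors and Orc subunits, Orc1 and Cdc6 varied more between tumors than Cdt1 and Orc6. Orc1 had 16.9 CPM in ATO 1, 1.68 in ATO 2, 5.79 in PBS 1 and 6.60 in PBS 2. The ATO tumors held both its highest and its lowest level, 10.0-fold apart, while the PBS tumors differed by less (0.877-fold, PBS 1 over PBS 2). Cdc6, the ATPase that helps load the helicase, had 21.2 CPM in ATO 1, 4.33 in ATO 2, 13.7 in PBS 1 and 9.52 in PBS 2. Cdt1, its loading partner, ranged less, with 24.3, 9.62, 27.1 and 19.8 CPM in the same order. Orc6, the smallest origin recognition subunit, had 30.7, 12.5, 35.6 and 23.4 CPM. Neither loading factor nor Orc subunit separated the groups. Orc1 shares 10.8% of its exonic bases with a gene on the other strand, and since whether counting used strand is unknown here, reads from such partners cannot be told apart.

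Among the helicase activators the 4 GINS subunits, which form 1 complex, did not follow one order. Gins1 had 10.7 CPM in ATO 1, 3.53 in ATO 2, 10.1 in PBS 1 and 3.98 in PBS 2, and Gins4 had 22.03, 22.8, 28.0 and 18.5 CPM. Gins4 and Gins3 were the 2 genes of the 38 without a higher level in ATO 1 than in ATO 2. Gins3 had 5.603 CPM in ATO 1, 5.69 in ATO 2, 7.36 in PBS 1 and 6.85 in PBS 2. Its groups did not overlap, yet the difference was small (log2 fold change -0.33, SE 0.56, edgeR adjusted p = 0.892). Per length, Gins4 exceeded Gins2 by 11.6-fold in ATO 1, 20.1-fold in ATO 2, 5.35-fold in PBS 1 and 10.5-fold in PBS 2. The Gins2 values are uncertain, since 67.3% of its exonic bases lie under the gene Gse1 on the opposite strand. Cdc45, which completes the active helicase, had 15.1, 8.33, 25.3 and 12.6 CPM in ATO 1, ATO 2, PBS 1 and PBS 2. Mcm10, which helps to start unwinding, had 17.4, 3.45, 19.8 and 7.21 CPM. Both overlapped between the groups.

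The polymerases differed among themselves. Pole, the catalytic subunit of the leading strand polymerase, had 21.8 CPM in ATO 1, 2.80 in ATO 2, 41.2 in PBS 1 and 22.9 in PBS 2. Both ATO tumors lay below both PBS tumors, but ATO 1 by a small margin (21.8 against 22.9 CPM), and its fold change was the lowest of the 38 genes (-1.38, SE 1.03, edgeR adjusted p = 0.735). Pold1, the catalytic subunit of the lagging strand polymerase, had 22.7, 16.7, 33.7 and 31.2 CPM in ATO 1, ATO 2, PBS 1 and PBS 2. Its gap between groups exceeded the difference within each, with a log2 difference of -0.72 (SE 0.41) and an adjusted p of 0.672 by edgeR. Pola1 and Prim1, which make the primers, instead had their highest level in ATO 1 (19.3 and 19.7 CPM) and their lowest in ATO 2 (6.57 and 5.37 CPM), and their fold changes were 0.098 and 0.036.

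Rfc3, a subunit of the clamp loader, had 13.8 CPM in ATO 1, 6.65 in ATO 2, 28.8 in PBS 1 and 18.7 in PBS 2. The groups did not overlap, and the fitted log2 difference was -1.21 (SE 0.58), with an adjusted p of 0.629 by edgeR. The clamp loader subunits Rfc4 and Rfc5 overlapped between the groups by this measure: Rfc4 had 11.5, 6.33, 16.8 and 7.21 CPM and Rfc5 had 23.5, 13.9, 48.7 and 22.3 CPM in the same order. Exonic overlap with opposite-strand genes was 12.7% for Rfc4 and 10.7% for Rfc5. Of the subunits outside the 38, Rfc1 (47.7, 38.9, 79.7 and 65.3 CPM) and Rfc2 (39.1, 33.1, 69.3 and 48.3 CPM) had both ATO tumors below both PBS tumors, and neither passed the test. Pcna, the sliding clamp that the loader places on DNA, was the highest of the 38 genes per length in every tumor, with 46.53 FPKM in ATO 1, 22.09 in ATO 2, 44.37 in PBS 1 and 37.33 in PBS 2. It also varied little, with 111, 64.8, 97.8 and 81.1 CPM and a log2 fold change of -0.023 (SE 0.44). Its annotated pseudogenes Pcna-ps1 and Pcna-ps2 held at most 13 counts in a tumor.

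The factors that protect or join DNA at the fork kept the common order of low levels in ATO 2. Rpa2, a subunit of the single-strand binding complex, had 32.3 CPM in ATO 1, 10.2 in ATO 2, 25.4 in PBS 1 and 20.4 in PBS 2. Lig1, which seals Okazaki fragments, had 48.3, 11.0, 40.5 and 29.2 CPM. Fen1, the flap nuclease, had 3.52, 1.12, 6.10 and 2.97 CPM and is uncertain, as 78.8% of its exonic bases are shared with the antisense gene Gm10143. All 3 overlapped between the groups.

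Nucleotide synthesis held both the gene with the smallest p and the second highest fold change. Tyms, thymidylate synthase, had 18.3 CPM in ATO 1, 11.1 in ATO 2, 41.8 in PBS 1 and 30.1 in PBS 2. Both ATO tumors lay below both PBS tumors, with means of 14.7 ± 5.12 CPM in ATO and 35.9 ± 8.22 CPM in PBS (SD, n = 2 each), and the log2 fold change was -1.29 (SE 0.48, 95% interval -2.56 to -0.026). The edgeR quasi-likelihood p was 0.047 before and 0.583 after adjustment over all genes, so it did not pass. The unadjusted p of Tyms was 0.055 by DESeq2. In edgeR it was 0.0501 with DESeq2 size factors, 0.0503 with a replicate block, 0.041 with total counts and 0.044 without a filter. The fold change of Tyms stayed between -1.72 and -0.97 with any 1 tumor left out, and its pseudogene Tyms-ps held at most 1 count. Its printed promoter stretch held a GC box but neither an E2F core nor a CCAAT box.

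Ribonucleotide reductase, which makes deoxynucleotides, showed its variation in the Rrm2 subunit. Rrm2 had 123 CPM in ATO 1, 10.8 in ATO 2, 59.8 in PBS 1 and 22.6 in PBS 2. The ATO tumors were its extremes, 11.4-fold apart, and its log2 difference of 0.70 (SE 1.19, with an adjusted p of 0.892 by edgeR) was smaller than its error. Rrm1, the large subunit, had 125, 44.2, 107 and 61.1 CPM. Per length, Rrm2 stood to Rrm1 at 3.90 in ATO 1, 0.973 in ATO 2, 2.23 in PBS 1 and 1.47 in PBS 2. Against Rrm2b, the p53-inducible alternative subunit, Rrm2 stood at 15.8, 1.30, 14.8 and 3.28 per length. Both ratios were highest in ATO 1 and lowest in ATO 2. Tk1, the thymidine kinase of S phase, had 39.1, 13.4, 39.4 and 34.9 CPM, and Dut, which keeps uracil out of DNA, 25.4, 12.9, 39.4 and 16.2 CPM, with overlapping groups for both.

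E2f2, an activating E2F factor, had an order of tumors that no other of the 38 genes shared. Orc1, Gins3 and Gins4 also each had an order of their own. E2f2 had 217 CPM in ATO 1, 26.0 in ATO 2, 8.94 in PBS 1 and 46.8 in PBS 2. Its highest and lowest tumors were 24.3-fold apart, the widest range of the 38 genes, and PBS 1, high for most other genes, was lowest. The groups overlapped, and the log2 fold change was 2.13 (SE 1.28, 95% interval -1.24 to 5.49, edgeR adjusted p = 0.683). Without ATO 1 it was -0.11. E2f1, its close relative, had 14.2, 11.2, 29.5 and 12.2 CPM and was highest in PBS 1. Per length, E2f2 stood to E2f1 at 9.85 in ATO 1, 1.498 in ATO 2, 0.196 in PBS 1 and 2.48 in PBS 2.

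The erythroid transcription factor gene Klf1, like E2f2, was highest in ATO 1 and next highest in PBS 2. Klf1 had 40.6 CPM in ATO 1, 0.24 in ATO 2, 0.16 in PBS 1 and 0.66 in PBS 2. The values of ATO 2 and PBS 1 rest on 3 counts each, so these tumors cannot be ranked for Klf1. Over all 5 erythroid markers, of which none was at 0 in any tumor, the sum was 8029 CPM in ATO 1, 986 in ATO 2, 200 in PBS 1 and 13138 in PBS 2. That sum was highest in PBS 2, not in ATO 1. Of the 5 markers, 3 were highest in PBS 2 and 2 in ATO 1. Red cell precursors are known to express E2f2 strongly, and the part of erythroid RNA in the E2f2 levels was not tested. With E2f2 left out, 29 of 37 genes had a lower fitted level in ATO and the median was -0.43.

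**Figure D5:**
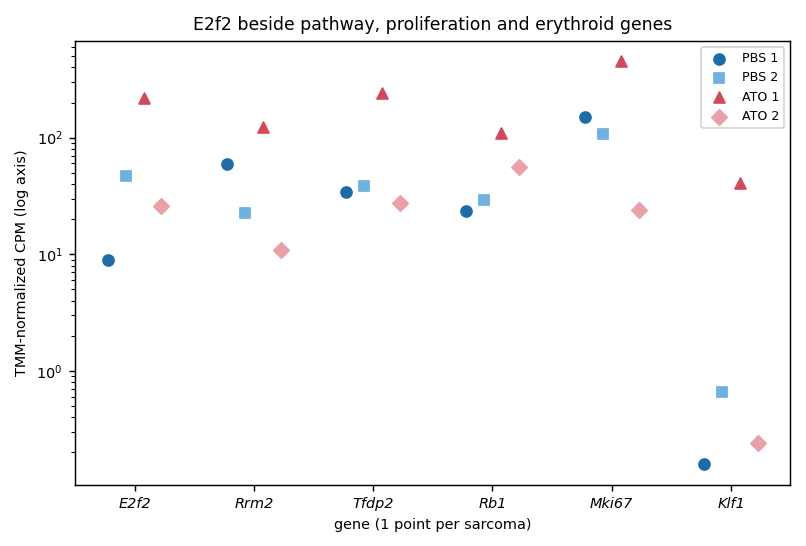
TMM-normalized CPM (vertical log axis) of E2f2, Rrm2, 2 E2F pathway genes (Tfdp2 and Rb1), the proliferation gene Mki67 and the erythroid gene Klf1 (horizontal axis), with 1 point per sarcoma. E2f2 runs ATO 1, PBS 2, ATO 2, PBS 1, whereas Rrm2 and Mki67 run ATO 1, PBS 1, PBS 2, ATO 2. Klf1 is highest in ATO 1 and next highest in PBS 2, and its ATO 2 and PBS 1 points rest on few counts. Rb1 alone of these genes has both ATO tumors above both PBS tumors.

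The cyclin E genes, whose products activate Cdk2 at the entry into S phase, were also lowest in ATO 2. Ccne1 had 21.3 CPM in ATO 1, 3.45 in ATO 2, 16.4 in PBS 1 and 9.88 in PBS 2, and Ccne2 had 24.2, 7.05, 18.6 and 12.3 CPM. Both were highest in ATO 1 and lowest in ATO 2, and their fold changes were -0.084 and 0.016. Ccne2 shares 17.4% of its exonic bases with Ints8. Uhrf1 had 48.1 CPM in ATO 1, 9.94 in ATO 2, 80.0 in PBS 1 and 36.3 in PBS 2, with a log2 difference of -1.001 (SE 0.88) and an adjusted p of 0.782 by edgeR. Brca1, which acts in repair of broken forks, had 19.7, 3.85, 18.8 and 11.1 CPM. Neither separated the groups.

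Of the 21 genes with an E2F core in a window, 19 were lowest in ATO 2, as were 11 of the 11 with a window and no core. The median ratio of ATO 1 to ATO 2 was 3.17-fold for the genes with a core and 1.97-fold for those without. The medians of the log2 fold change between treatments were -0.33 and -0.50. These are descriptions of 2 unequal sets of genes from the same 4 libraries.

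The 74 other genes of the replication pathway, fixed as a list by function, showed the lowest place of ATO 2 less often. None passed edgeR's adjusted threshold, and 3 of 74 had an unadjusted edgeR p under 0.05, a smaller share than the 8.51% of all genes (5.44% higher in ATO). All 3 were higher in ATO: Rb1 and Rbl2, pocket proteins that restrain E2F, and Lin52, a subunit of the complex that represses cell cycle genes in resting cells. Rb1 had 110 CPM in ATO 1, 56.4 in ATO 2, 23.6 in PBS 1 and 29.4 in PBS 2 (log2 fold change 1.65, SE 0.49, edgeR adjusted p = 0.57). Rbl2 had 123, 75.2, 42.8 and 40.8 CPM (1.24, SE 0.42, edgeR adjusted p = 0.57), and Lin52 had 18.2, 14.98, 7.15 and 5.84 CPM (1.35, SE 0.50, edgeR adjusted p = 0.58). In all 3 both ATO tumors lay above both PBS tumors, as for 8 of the 74 genes (19.7% of all genes), while 20 had both ATO tumors below (20.2% of all genes). Muscle and adipocyte markers split the tumors in the same way, and their part in these 3 levels was not tested. Per length, Rb1 stood to E2f1 at 4.05 in ATO 1, 2.64 in ATO 2, 0.419 in PBS 1 and 1.26 in PBS 2.

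Over the 74 genes 49 had a lower and 25 a higher fitted level in ATO, the median log2 fold change was -0.19, and ATO 2 was lowest for 48 (25.6% of all genes). Besides the 3 named, the largest positive fold changes were those of Tfdp2 (1.88, SE 1.03), a dimer partner of E2F, and E2f6 (0.58, SE 0.36), a repressive E2F. Tfdp2 was high in ATO 1 alone, with 239 CPM against 27.6 in ATO 2, 34.3 in PBS 1 and 38.4 in PBS 2. The most negative were those of Chek1 (-1.53, SE 0.79), the checkpoint kinase of S phase, Mtbp (-1.42, SE 0.68), an origin firing factor, Chaf1a (-1.34, SE 0.80), a histone chaperone at forks, Hells (-1.27, SE 0.77), a chromatin remodeler, and Dbf4 (-1.21, SE 0.64), which activates the Cdc7 kinase. None of these passed the test.

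Cdkn1a, the p53 target that inhibits cyclin-dependent kinases, was read beside the replication genes. It had 268 CPM in ATO 1, 215 in ATO 2, 18.3 in PBS 1 and 57.7 in PBS 2, so that both ATO tumors lay above both PBS tumors (log2 fold change 2.67, SE 0.70, edgeR adjusted p = 0.57). The summed level of the 38 genes was 1542 CPM in ATO 1 and 502 in ATO 2, against 1475 in PBS 1 and 919 in PBS 2. Both ATO tumors also lay above both PBS tumors for 8 of 8 muscle markers. The part of muscle RNA in the Cdkn1a levels was not tested. Mki67, a marker of cycling cells, had 455 CPM in ATO 1, 24.1 in ATO 2, 151 in PBS 1 and 108 in PBS 2, and Top2a, the topoisomerase of dividing cells, had 131, 17.7, 185 and 125 CPM.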

How the data were processed

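Tumor RNA from 4 sarcomas was sequenced as paired reads. Per the study's methods and the submitters' processing notes, reads were checked with FastQC 0.10.1, trimmed with cutadapt 1.9.1 and aligned to GRCm38 with HISAT2 2.0.1. The labels and the methods name different extraction and library kits. The authors deposited raw counts per gene, not normalized, and FPKM, which equal counts divided by exonic length and library total within 0.01 for 226764 of 226764 values. Most positions in the table did not match GRCm38 annotation, so positions were taken from GENCODE M21 by gene identifier. Genes without a symbol (2639) held at most 0.171% of counts.

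Counts were tested in R 4.3.3 with edgeR 4.0.16 (filterByExpr with a minimum count of 10, TMM, trended dispersion, quasi-likelihood F-test, Benjamini-Hochberg over all 17188 genes, threshold 0.05). The biological coefficient of variation was 62.5%. With 2 against 2 samples an exact two-sided permutation test cannot go below 0.333, so none was used. Between-sarcoma levels are CPM after TMM scaling, and per-length levels are FPKM. The pipeline was tested on simulated data. Alternatives were DESeq2 1.42.0, its size factors, total counts, no filter, a replicate block and each sarcoma left out. Over all genes tested, the deviations of same-numbered sarcomas had a correlation of 5.0e-05. Among the 38 genes, 36 were higher in ATO 1 than in ATO 2 and 36 in PBS 1 than in PBS 2. These values cannot settle whether same-numbered sarcomas were handled together, and the main fit used no replicate block. Figures were drawn in Python 3.11.15 with matplotlib 3.10.9.

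Named were all 38 genes, of the other 74 replication genes those with an unadjusted p under 0.05 and the 5 largest fold changes in each direction, Cdkn1a, Mki67 and Top2a, and markers that moved with the genes. Members and lists were chosen with earlier results of these data known. Klf1, Runx2, Sp7, Rfc1 and Rfc2 were singled out after their values were seen. Some items are not reported here.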

Additional observations from a re-analysis of the deposited data

How the results depend on the processing

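No alternative called any of the 38 genes, whatever the tool, filter or scaling. Over all genes DESeq2 called 753 (594 higher, 159 lower) and edgeR without a filter 541 (454 higher, 87 lower), against 0 in the reported test and 0 under the other settings. ATO 2 was the lowest tumor for 35 genes with DESeq2 size factors and 37 with total counts, both chosen after seeing the data. Scaling to total counts shifted the median of all genes to -0.28, left 3 of the 38 genes and 13 of the 74 other replication genes with a higher fitted level in ATO, and put both ATO tumors below both PBS tumors for 8 of the 38. It turned the fold changes of Cdc6 (-0.034), Gins1 (-0.18), Pola1 (-0.096), Prim1 (-0.15), Rrm1 (-0.18) and Ccne2 (-0.17) negative. Without a filter Gins1 (-0.0094), Rrm1 (-0.0065) and Ccne2 (-0.0059) turned negative. The causes were not tested.

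With the replicate block, 1 of the 38 genes had a higher fitted level in ATO, the median was -0.56, and Orc1 (-0.18), Cdc6 (-0.25), Gins1 (-0.047), Pola1 (-0.078), Prim1 (-0.18), Rrm1 (-0.12), Rrm2 (-0.00079) and Ccne2 (-0.21) turned negative. The block called 0 genes, with 1165 at an unadjusted p under 0.05 by edgeR, and changed no other call.

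Leaving out each tumor in turn gave from 0 to 23 genes of the 38 higher in ATO and a median of -1.34 to 0.085, and from 17 to 39 of the other 74 with a median of -0.76 to 0.12. A group reduced to 1 sarcoma was taken to vary like the other. The fold change changed sign for 26 genes, with these ranges: Orc1 -1.89 to 1.45, Orc6 -1.25 to 0.063, Cdc6 -1.44 to 0.87, Cdt1 -1.30 to 0.057, Mcm2 -1.62 to 0.29, Mcm3 -1.13 to 0.31, Mcm4 -1.20 to 0.086, Mcm6 -1.45 to 0.10, Mcm10 -1.99 to 0.54, Gins1 -1.02 to 0.83, Gins4 -0.32 to 0.28, Pola1 -0.90 to 0.68, Prim1 -1.20 to 0.69, Rfc4 -0.94 to 0.31, Rpa2 -1.19 to 0.50, Pcna -0.48 to 0.32, Lig1 -1.68 to 0.48, Rrm1 -0.94 to 0.59, Rrm2 -1.95 to 1.58, Tk1 -1.49 to 0.082, Dut -1.13 to 0.24, E2f1 -1.21 to 0.062, E2f2 -0.11 to 3.76, Ccne1 -1.94 to 0.70, Ccne2 -1.15 to 0.65 and Brca1 -1.98 to 0.40. At 2 tumors per group and this spread, the fits left wide intervals, and the few counts of Fen1 and Orc1 in ATO 2 limit those genes further.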

Other observations

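The checkpoint and repair genes of the replication fork mostly shared the lowest place of ATO 2. ATO 2 was lowest for 8 of these 9 genes, Atrip being the exception, and 0 of 9 passed edgeR's adjusted threshold. Exo1, a nuclease of mismatch repair, had 6.10 CPM in ATO 1, 0.64 in ATO 2, 9.63 in PBS 1 and 4.33 in PBS 2. Its ATO 2 value rests on 8 counts. The kinase Atr, which senses stalled forks, varied little, with 19.9, 16.1, 16.9 and 19.4 CPM in the same order.

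Chromatin assembly genes at forks were lowest in ATO 2 and highest in PBS 1 in 6 of 6 cases, with a median log2 fold change of -0.93 and 0 of 6 called by edgeR. Dnmt1, the maintenance DNA methyltransferase, had 70.0 CPM in ATO 1, 53.0 in ATO 2, 160 in PBS 1 and 74.9 in PBS 2, so that both ATO tumors lay below both PBS tumors. Of the 8 licensing genes outside the 38, ATO 2 was lowest for 2, and Orc3, an origin recognition subunit, had 53.8, 52.7, 48.5 and 45.4 CPM. The genes named in these paragraphs were chosen after their values were seen.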
